A study of Homo sapiens with 10 samples.

Results

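The ZIC genes encode zinc finger transcription factors, and their transcripts were followed in 10 RNA-seq libraries of HAP1 cells, which are near-haploid, human and of leukaemic origin. Members were chosen by name, as the rows ZIC1, ZIC2, ZIC4 and ZIC5 of both count tables, which gave 4 genes of 59453. The family was selected on its CPM in each library over genotypes and H2O2, so its levels and fold changes are given as a description, without a p. The clones were wild type (WT), deficient for the adenine DNA glycosylase MUTYH (MUTYH knockout), deficient for the 8-oxoguanine DNA glycosylase OGG1 (OGG1 knockout) or deficient for both (DKO), with 2 clones per genotype and no treatment. WT clones 2 and 11 were also sequenced 24 hours after 100 µM H2O2, which gave the remaining 2 libraries. All knockouts were made with CRISPR-Cas9, all clones carry the HAP1 background, and each clone gave 1 library per condition. Per the study's clone list, both DKO clones were derived from an OGG1 knockout clone that appears from its product number to be clone 22, so OGG1 knockout clone 22, DKO clone 4 and DKO clone 14 may share 1 knockout of OGG1. Total counts were 22225091 to 22674964 per library, and levels are given as CPM, the count normalised to the library's total count.

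ZIC proteins share a domain of C2H2 zinc fingers that is related to that of the GLI factors, the transcriptional effectors of Hedgehog signalling. In the vertebrate embryo they act in the neural plate, its border and the neural crest, where they can bind GLI-type sites and influence both Hedgehog and Wnt target genes. ZIC1 and ZIC2 are known for their roles in the cerebellum and forebrain. ZIC2 loss causes holoprosencephaly, a failure of the forebrain to divide. ZIC2 also occupies enhancers in pluripotent cells. ZIC4 is best known for a role in the cerebellum, and ZIC5 for a role in the neural crest and neural tube.

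The 4 genes lie as 2 divergent pairs in GRCh38 (GENCODE v44). ZIC2 (chr13:99981784-99986765, plus strand) and ZIC5 (chr13:99962964-99971767, minus strand) are arranged head to head with 10017 bp between their starts, and neither overlaps another annotated gene. ZIC1 (chr3:147393422-147510293, plus strand) and ZIC4 (chr3:147386046-147406809, minus strand) overlap each other on opposite strands. The strand setting of the counting is not stated in the sources used here, so reads in the overlap of ZIC1 and ZIC4 could not be told apart. ZIC genes are paralogs, and how reads with several alignments were counted is not stated either.

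The 250 bases before a RefSeq start (GRCh38.p14) of ZIC2, ZIC5 and ZIC1 are shown, because the first 2 genes had a measurable level and moved together across clones while ZIC1 was close to silent. For ZIC5 the most upstream of 3 RefSeq starts was taken, and for ZIC1 the RefSeq start lies inside the longer GENCODE gene. Capitals mark the letters CCAAT (the CCAAT box) and GGGCGG (the GC box bound by SP factors) on either strand, so that ATTGG and CCGCCC are also in capitals. Neighbouring GC boxes may share bases.
ZIC2, chr13:99981534-99981783, plus strand: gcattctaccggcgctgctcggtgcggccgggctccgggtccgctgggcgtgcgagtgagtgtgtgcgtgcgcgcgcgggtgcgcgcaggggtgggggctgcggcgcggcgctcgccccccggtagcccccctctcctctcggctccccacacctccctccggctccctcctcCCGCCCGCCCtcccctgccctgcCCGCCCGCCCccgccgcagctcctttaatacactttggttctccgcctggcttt
ZIC5, chr13:99971910-99972159, minus strand: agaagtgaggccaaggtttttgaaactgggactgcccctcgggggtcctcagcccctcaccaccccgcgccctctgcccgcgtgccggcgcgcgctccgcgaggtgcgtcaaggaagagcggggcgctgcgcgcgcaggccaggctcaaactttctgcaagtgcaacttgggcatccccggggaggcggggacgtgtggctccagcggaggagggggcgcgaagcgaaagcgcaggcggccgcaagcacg
ZIC1, chr3:147409115-147409364, plus strand: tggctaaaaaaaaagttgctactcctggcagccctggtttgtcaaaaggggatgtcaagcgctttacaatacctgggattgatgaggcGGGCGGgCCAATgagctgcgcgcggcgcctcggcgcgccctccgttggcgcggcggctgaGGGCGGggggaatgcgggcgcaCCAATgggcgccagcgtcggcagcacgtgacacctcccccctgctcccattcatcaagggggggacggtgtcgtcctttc
The ZIC2 window held 4 GC boxes and 0 CCAAT boxes, with 31 CpG dinucleotides and a GC content of 75.6%, at percentile 90.7 of 35116 RefSeq promoters of the same length. The ZIC5 window held neither motif, with 28 CpG dinucleotides and a GC content of 70.4% (percentile 80.1), and the window before the GENCODE start of ZIC5, which lies further downstream, held 3 CCAAT boxes. The ZIC1 window held 2 of each motif, 23 CpG dinucleotides and a GC content of 64.4% (percentile 65.4). Over all 35116 promoters the median was 58.0% GC and 11 CpG dinucleotides, 32.0% held CCAAT and 42.6% held GGGCGG. The TATA box letters TATAAA, found in 10.7% of all promoters, were absent from the 3 windows shown. The close-to-silent gene thus also had a CpG-rich window, and these letters are a description of the windows only.

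ZIC2 and ZIC5 were expressed at a low to moderate level in all 10 libraries, whereas ZIC1 and ZIC4 were at or near 0. ZIC1 had 1 count in WT clone 11 with and without H2O2, in OGG1 knockout clone 1 and in MUTYH knockout clone 7, and 0 counts in the other libraries. ZIC4 had 1 count in OGG1 knockout clone 1 and in treated WT clone 11, and 0 elsewhere. ZIC4-AS1, an antisense transcript of ZIC4, had 0 counts in every untreated library. In the libraries at 0, that count allows a level of up to 0.134 to 0.135 CPM (3 counts of the library's total), and the two-sided 95% Poisson interval drawn in the plot of levels reaches 0.164 to 0.166 CPM, so a transcript of ZIC1 or ZIC4 below these levels was not detectable at this depth. Only ZIC2 and ZIC5 passed the filter on low counts, in the genotype fit and in the H2O2 fit.

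In untreated WT cells, ZIC2 had 173 counts (7.76 CPM) in clone 11 and 346 counts (15.5 CPM) in clone 2. In the MUTYH knockout it had 97 counts (4.33 CPM) in clone 7 and 349 counts (15.6 CPM) in clone 8. In the OGG1 knockout it had 77 counts (3.46 CPM) in clone 1 and 332 counts (14.8 CPM) in clone 22. Each genotype so far had a high and a low clone, and the high clones were alike. In DKO cells, ZIC2 had 226 counts (10.2 CPM) in clone 4 and 387 counts (17.2 CPM) in clone 14, so the low DKO clone stood above the other low clones. After H2O2, it had 196 counts (8.64 CPM) in WT clone 11 and 281 counts (12.6 CPM) in WT clone 2. The treated libraries lay between the untreated WT clones. Counting error alone gave exact 95% Poisson intervals of 2.73 to 4.33 CPM for OGG1 knockout clone 1 and 15.6 to 19.0 CPM for DKO clone 14. Reads were not tagged by molecule, and intervals and floors therefore cover counting error only.

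ZIC5 had 309 counts (13.9 CPM) in untreated WT clone 11 and 412 counts (18.5 CPM) in clone 2. It had 222 counts (9.91 CPM) in MUTYH knockout clone 7 and 372 counts (16.6 CPM) in clone 8. It had 204 counts (9.18 CPM) in OGG1 knockout clone 1 and 346 counts (15.5 CPM) in clone 22. As for ZIC2, the same clone of each genotype was the higher one, with a smaller gap. In DKO cells, ZIC5 had 346 counts (15.6 CPM) in clone 4 and 409 counts (18.2 CPM) in clone 14. After H2O2, it had 437 counts (19.3 CPM) in WT clone 11 and 426 counts (19.0 CPM) in WT clone 2, which are the highest ZIC5 levels of the 10 libraries.

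**Figure D1:**
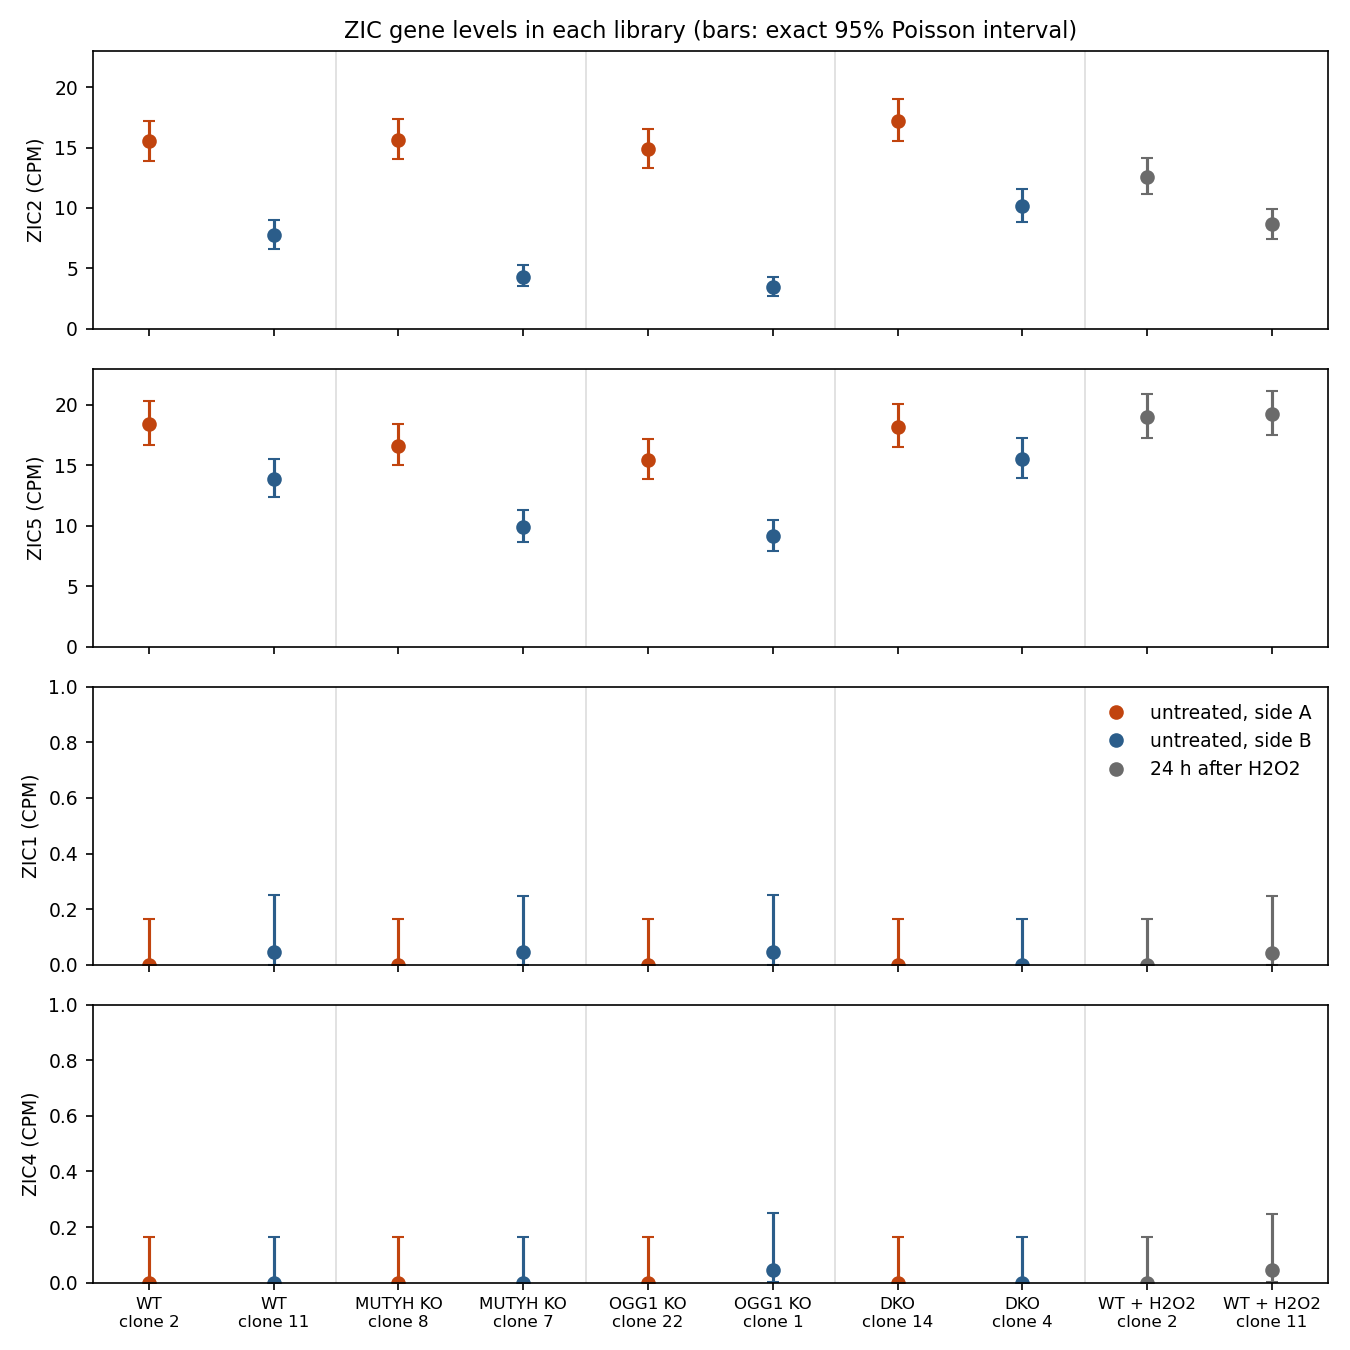
Level of each ZIC gene in CPM (y axis, linear, with a separate scale for ZIC1 and ZIC4) in each of the 10 libraries (x axis), with bars for the exact 95% Poisson interval and colours for the 2 sides of the library split described in the text and for H2O2. ZIC2 runs from 3.46 to 17.2 CPM with a high and a low clone in each genotype, ZIC5 from 9.18 to 19.3 CPM, and ZIC1 and ZIC4 have at most 1 count.

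The first question was whether loss of a DNA glycosylase altered the ZIC transcripts, and for ZIC2 the genotype means differed by less than the 2 clones of any genotype did. For ZIC5, the means of DKO and WT cells stood above those of the single knockouts by more than the gap between the 2 DKO clones, but by less than the gap between the 2 clones of either single knockout. The ZIC2 level was 11.6 CPM ± 5.47 in WT, 9.97 ± 7.98 in the MUTYH knockout, 9.16 ± 8.05 in the OGG1 knockout and 13.7 ± 4.999 in DKO cells (mean ± SD, n = 2 clones). The ZIC5 level was 16.2 CPM ± 3.24 in WT, 13.3 ± 4.76 in the MUTYH knockout, 12.3 ± 4.45 in the OGG1 knockout and 16.9 ± 1.88 in DKO cells. Both genes were thus ordered DKO, WT, MUTYH knockout and OGG1 knockout from high to low. Every step between neighbours in that order was smaller than the SD between clones in at least 1 of the 2 groups, and in each genotype the clones overlapped those of WT. In these bulk libraries, fewer cells that express a gene and less RNA per cell cannot be told apart.

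The fit across all 17881 tested genes gave for ZIC2 a log2 fold change (log2FC) against WT of -0.21 ± 0.77 (SE) in the MUTYH knockout, -0.34 ± 0.77 in the OGG1 knockout and 0.24 ± 0.77 in DKO cells. For ZIC5 it gave -0.26 ± 0.32, -0.38 ± 0.32 and 0.07 ± 0.32 in the same order. All of these values were smaller than their standard errors, except that of ZIC5 in the OGG1 knockout. Genes were called differentially expressed (DEGs) at an unadjusted P of 0.05 or less together with a log2FC beyond 1 in either direction. By edgeR's quasi-likelihood test, 0 of the 2 tested ZIC genes were DEGs in the MUTYH knockout, where 1.19% of all tested genes were DEGs. Likewise, 0 of 2 were DEGs in the OGG1 knockout (1.67% of all genes) and 0 of 2 in DKO cells (1.77% of all genes). The P alone was also at most 0.05 for 0 of 2 in each comparison, by edgeR and by DESeq2. The ZIC genes were chosen with these values known, so nothing is read from these counts. All 3 comparisons share the 2 WT libraries.

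The direction of the ZIC2 value depended on single clones. Without MUTYH knockout clone 8 the ZIC2 log2FC was -1.35, and without clone 7 it was 0.41. Without OGG1 knockout clone 22 it was -1.71, and without clone 1 it was 0.35. In DKO cells, it was -0.19 without DKO clone 14 and 0.82 without WT clone 2. The ZIC5 value ran from -0.63 to 0.03 in the MUTYH knockout, from -0.78 to -0.07 in the OGG1 knockout and from -0.12 to 0.29 in DKO cells when 1 library was left out. The sign for ZIC5 in the OGG1 knockout was therefore negative with each library left out, and in the other 2 comparisons it turned with at least 1 library.

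**Figure D2:**
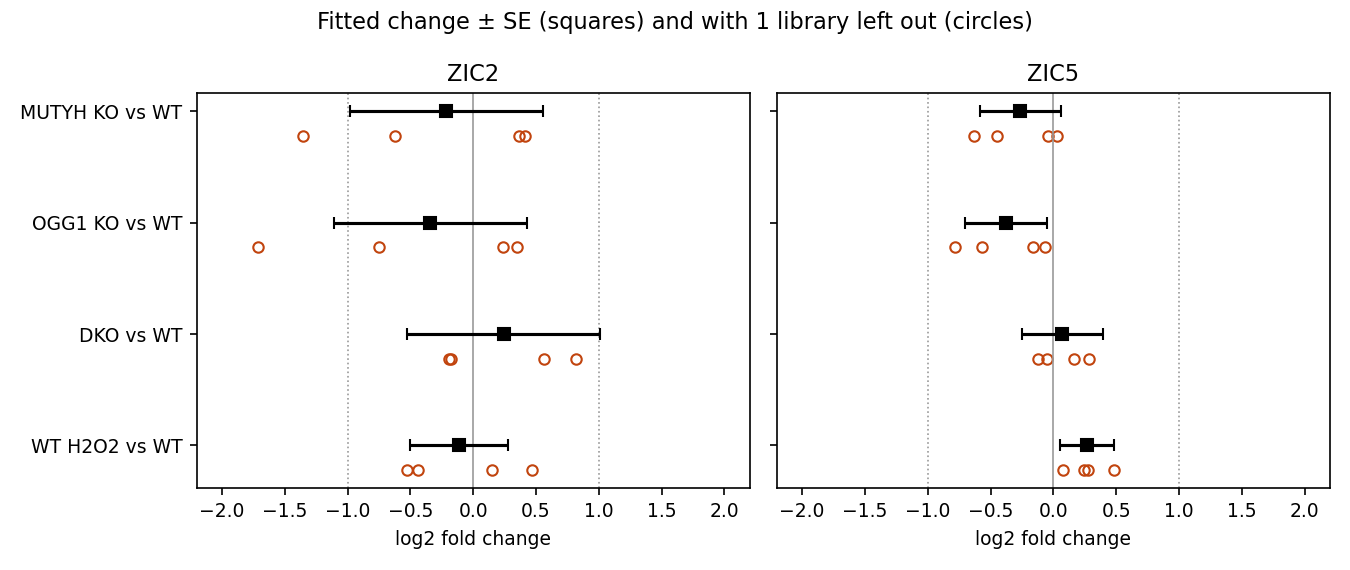
Log2FC of ZIC2 (left) and ZIC5 (right) against untreated WT, with squares and bars for the fitted value ± SE and open circles for the value with 1 library left out. Dotted lines mark a log2FC of -1 and 1. The circles of ZIC2 run from -1.71 to 0.82, and those of ZIC5 from -0.78 to 0.48.

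The 2 clones of each genotype were assigned to 2 sides, without the ZIC genes, by the first principal component of log2 CPM after each genotype's mean was subtracted, which held 49.9% of that variance. With 2 clones per genotype, this centring puts 1 clone of each genotype on each side by construction. Side A comprised DKO clone 14, OGG1 knockout clone 22, WT clone 2 and MUTYH knockout clone 8. Side B comprised DKO clone 4, OGG1 knockout clone 1, WT clone 11 and MUTYH knockout clone 7. The labels name no batch that matches this split, and what set the clones apart was not tested. All other tested genes entered the split, so their differences between the sides are a description too. Summed levels of adherent cell markers (6 of 6 tested) were 338 to 649 CPM on side A and 603 to 733 CPM on side B, and those of neural markers (3 of 7 tested) were 127 to 201 CPM and 188 to 367 CPM. The neural sum was mostly NES, at 119 to 195 CPM on side A and 178 to 355 CPM on side B. Without overlap, 0 of the 3 tested neural markers separated the sides. Of the 6 tested adherent markers, CDH2 was lower on side A without overlap and 0 were higher. Of all tested genes, 16.5% were higher and 12.9% lower in this way. NEUROD1, a marker of some differentiating neurons, was at 0 in all libraries. Blood cell markers (2 of 8 tested) summed to 0.494 to 1.75 CPM over all untreated libraries. The part of what these markers reflect in the ZIC levels was not tested.

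ZIC2 was higher on side A than on side B in every genotype. The fold of the side A clone over the side B clone was 1.996 in WT, 3.61 in the MUTYH knockout, 4.29 in the OGG1 knockout and 1.70 in DKO cells. ZIC2 was at 14.8 to 17.2 CPM on side A and at 3.46 to 10.2 CPM on side B, so the sides did not overlap. Of all tested genes, 16.5% were higher on side A without overlap and 12.9% were lower without overlap. For ZIC5 the fold was 1.33 in WT, 1.68 in the MUTYH knockout, 1.69 in the OGG1 knockout and 1.17 in DKO cells. The sides overlapped for ZIC5, since OGG1 knockout clone 22 (15.47 CPM) on side A lay just below DKO clone 4 (15.56 CPM) on side B. A side A clone above the side B clone in all 4 genotypes, as seen for both genes, occurred for 25.7% of all tested genes.

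Within a side, the ratios of the knockout clones to the WT clone were wider on side B than on side A. On side A, the log2 ratio of ZIC2 to the WT clone was 0.01 in the MUTYH knockout clone, -0.06 in the OGG1 knockout clone and 0.15 in the DKO clone. On side B, it was -0.84, -1.16 and 0.39 in the same order. For ZIC5 these ratios were -0.15, -0.25 and -0.02 on side A and -0.48, -0.60 and 0.17 on side B. Each of these ratios compares 1 clone with 1 clone and has no replicate. With the side as a block in the fit, the ZIC2 log2FC was -0.36 ± 0.32 in the MUTYH knockout, -0.54 ± 0.33 in the OGG1 knockout and 0.30 ± 0.32 in DKO cells, with a smaller SE than without the block. The ZIC5 log2FC was then -0.28 ± 0.18, -0.40 ± 0.18 and 0.09 ± 0.17. The sides were drawn from the expression of the same libraries, though without the ZIC genes, so nothing is read from the smaller SE. Still, 0 of 2 ZIC genes were DEGs in each comparison.

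The 2 genes of the chromosome 13 pair varied together, with ZIC2 over a wider range. Over the 8 untreated libraries, the Pearson correlation of their log2 CPM was 0.971 and Spearman's rho was 0.905. The points share the split of the libraries, and with 4 libraries a side the correlation was not read within a side. It is given as a description. The ratio of ZIC2 to ZIC5 counts was 0.840 in WT clone 2, 0.938 in MUTYH knockout clone 8, 0.960 in OGG1 knockout clone 22 and 0.946 in DKO clone 14. On side B it was 0.560 in WT clone 11, 0.437 in MUTYH knockout clone 7, 0.377 in OGG1 knockout clone 1 and 0.653 in DKO clone 4. It was thus higher in each clone of side A than in any of side B.

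Compared per length of annotated exon (3290 bp for ZIC2 and 4497 bp for ZIC5), the order of the 2 genes differed between the sides. ZIC2 was at 4.51 to 5.24 CPM per kilobase on side A, above ZIC5 in each of the 4 libraries. On side B, ZIC2 was at 1.05 to 3.09 CPM per kilobase, below ZIC5 in each of the 4 libraries. ZIC5 was at 3.44 to 4.10 CPM per kilobase on side A and at 2.04 to 3.46 on side B. ZIC1 and ZIC4 did not exceed 0.00659 and 0.00528 CPM per kilobase in untreated cells. Exon lengths are the union over transcripts in GENCODE v44, whereas the reads were counted on an Ensembl annotation. By counts, ZIC2 was below ZIC5 in every library, so the change of order depends on these lengths. Which transcripts were expressed was not measured.

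**Figure D3:**
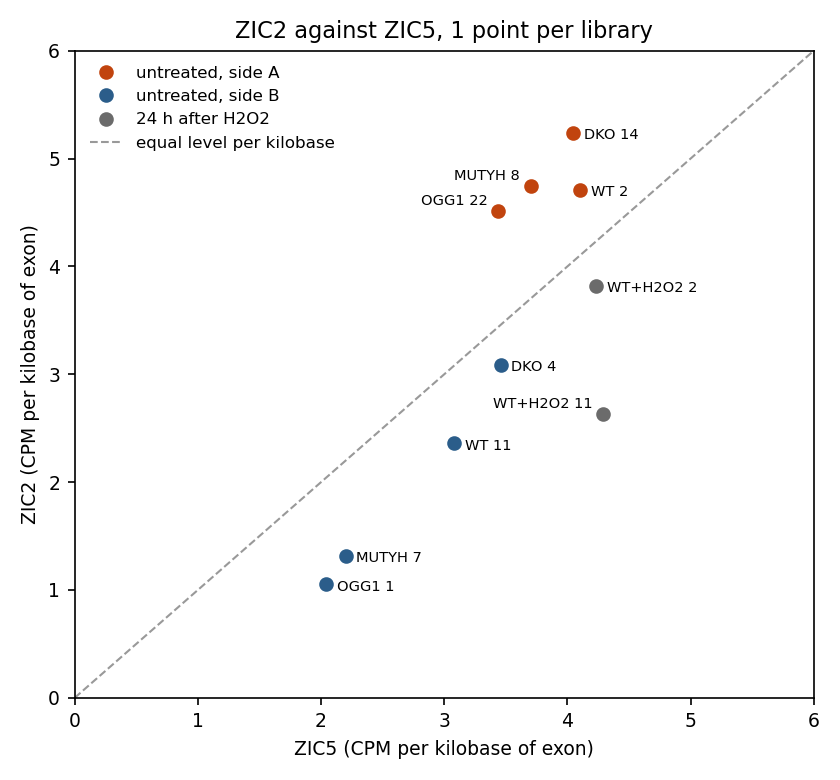
ZIC2 level (y axis) against ZIC5 level (x axis), both in CPM per kilobase of exon, with 1 point per library and a dashed line for equal levels. The 4 side A libraries lie above the line, with ZIC2 at 4.51 to 5.24, and the 4 side B and 2 treated libraries lie below it.

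The second question was the response of WT cells to oxidative stress 24 hours after H2O2. ZIC2 was at 10.6 CPM ± 2.77 in treated and 11.6 CPM ± 5.47 in untreated WT cells (mean ± SD, n = 2 clones), and its log2FC was -0.11 ± 0.39 (SE). The 2 clones went opposite ways, with a log2 ratio of treated to untreated of -0.30 in clone 2 and 0.15 in clone 11. ZIC5 was at 19.2 CPM ± 0.165 in treated and 16.2 CPM ± 3.24 in untreated cells, and its log2FC was 0.27 ± 0.21. Its log2 ratio was 0.04 in clone 2 and 0.47 in clone 11. Both treated ZIC5 levels stood above both untreated WT levels, as did those of 18.8% of the 16997 tested genes, while 22.4% stood below. By edgeR's quasi-likelihood test, 0 of the 2 tested ZIC genes were DEGs, against 1.75% of all genes. With clone as a replicate block, the log2FC was -0.07 ± 0.19 for ZIC2 and 0.28 ± 0.17 for ZIC5, and 0 of 2 were DEGs.

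The H2O2 values also depended on single libraries. The ZIC2 log2FC ran from -0.52 without untreated WT clone 11 to 0.47 without untreated WT clone 2, and that of ZIC5 from 0.08 to 0.48 for the same libraries. On the axis of the library split, set to 0 at the mean of untreated WT, the untreated WT clones lay at -28.2 (clone 11) and 28.2 (clone 2). The treated libraries of the same clones lay at -0.68 and 19.2. The treated WT clones stood closer together on that axis than the untreated ones. The axis was fitted to the untreated libraries only, which favours a wider gap between them, so nothing is read from this. Both ZIC genes also differed less between the treated WT clones than between the untreated ones. The part of the axis in the ZIC values was not tested. The ratio of ZIC2 to ZIC5 counts was 0.449 in treated clone 11 and 0.660 in treated clone 2, both below the same clone without treatment.

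Genes with a row in the tables and a start within 1 Mb of the chromosome 13 pair numbered 37, of which 13 passed the filter. Higher on side A without overlap were CLYBL (citramalyl-CoA lyase), PCCA-DT (a transcript divergent from PCCA), GGACT (a gamma-glutamylamine cyclotransferase) and RPS26P47 (a ribosomal protein pseudogene inside GGACT, whose reads may belong to GGACT or to its parent gene). Lower on side A without overlap were UBAC2 and TM9SF2, which encode membrane proteins. The neighbour with the widest mean gap was CLYBL, with a log2 difference between the sides of 1.01 in WT, 0.65 in the MUTYH knockout, 1.92 in the OGG1 knockout and 1.52 in DKO cells. For TM9SF2 it was -0.51, -0.81, -0.98 and -0.70. Of the 13 genes, 4 were higher and 2 lower on side A without overlap, beside 16.5% and 12.9% of all tested genes. The median log2 difference over the 13 genes was 0.36.

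**Figure D4:**
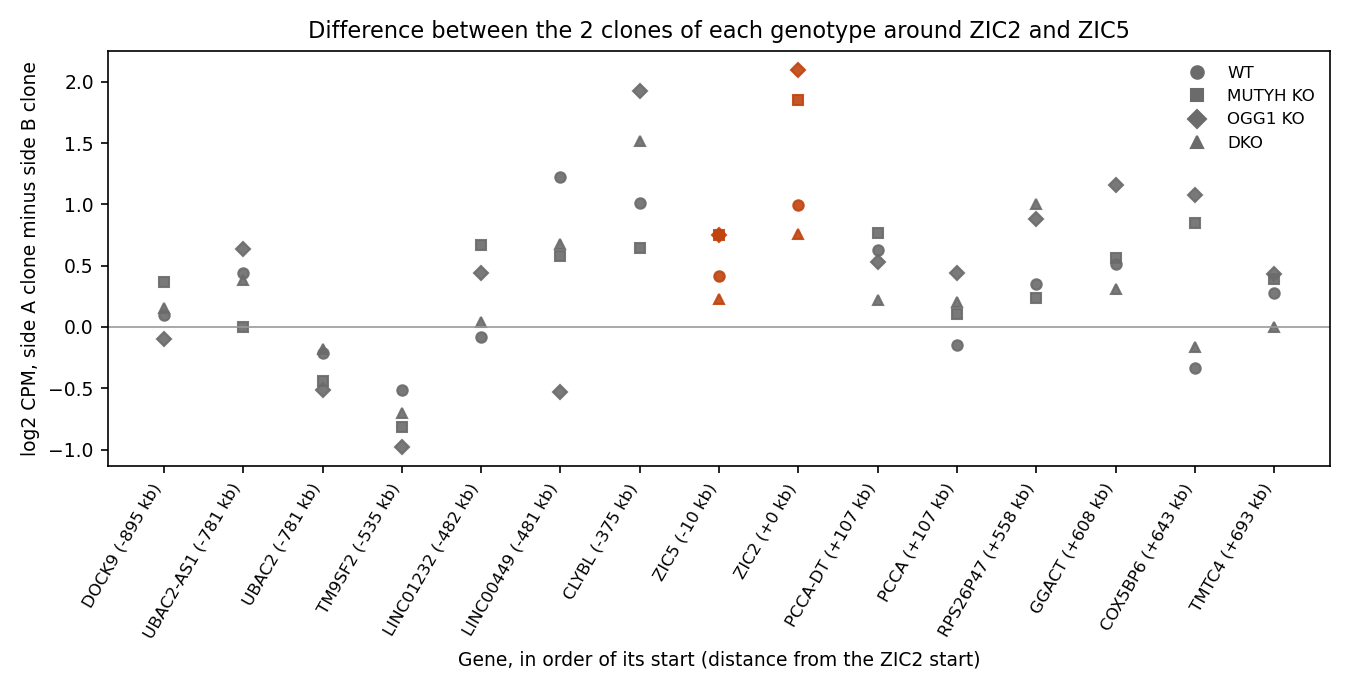
Log2 CPM of the side A clone minus the side B clone (y axis) for the tested genes around ZIC2 and ZIC5 in the order of their starts (x axis, evenly spaced, distance from the ZIC2 start in kb), with 1 symbol per genotype and the ZIC genes in colour. ZIC2 lies at 0.76 to 2.10 and ZIC5 at 0.23 to 0.75, CLYBL at 0.65 to 1.92 and TM9SF2 below 0 in all 4 genotypes.

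Of these 13 neighbours, 0 were DEGs in any of the 3 knockouts by edgeR's quasi-likelihood test, where 1.19% to 1.77% of all tested genes were. After H2O2, where LINC00449 was not tested, 0 of the others were DEGs, against 1.75% of all tested genes. Over the 298 tested genes of chromosome 13, the median log2 difference between the sides was 0.06 in WT, 0.17 in the MUTYH knockout, 0.05 in the OGG1 knockout and 0.18 in DKO cells. Over all 15365 tested genes with a position it was 0.00, 0.09, 0.03 and 0.05. Around the chromosome 3 pair, 14 other genes had a row and only PLSCR1, a phospholipid scramblase, passed the filter, at 18.2 to 25.5 CPM. The other 13 rows of that region were at no more than 0.0899 CPM in untreated cells, in the same low range as ZIC1 and ZIC4.

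The genes whose log2 CPM followed ZIC2 most closely over the 8 untreated libraries were STK24 (Pearson r = 0.995), LITAF (0.989), AP1S3 (0.987), PXK (0.982) and RBM24 (0.978). All 5 were higher on side A without overlap. STK24, which encodes a serine/threonine kinase, lies on chromosome 13, 1404 kb from the ZIC2 start, and was at 94.8 to 98.0 CPM on side A and 77.1 to 88.1 CPM on side B. LITAF was at 49.5 to 59.4 CPM and 19.2 to 35.9 CPM, a gap closer to that of ZIC2. For ZIC5, they were MPV17L (r = 0.982), RGS17 (0.973), RPRML (0.970), SNAP91 (0.970) and SBNO1 (0.968). RPRML and SNAP91 were at or below 1.03 CPM, so their likeness rests on few counts. An r of at least 0.9 was reached with ZIC2 by 194 of 17878 other tested genes (1.09%) and with ZIC5 by 96 (0.537%). The points share the split of the libraries, so these values describe likeness across these 8 libraries only.

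The Hedgehog and GLI list, with the closest relatives and best known partners of the ZIC factors, held 22 genes, of which 19 were tested between genotypes. By edgeR's quasi-likelihood test, 0 of 19 were DEGs in each knockout, against 1.19% to 1.77% of all tested genes. GLI2, an activating effector of the pathway, was at 37.0 CPM (clone 2) and 47.3 CPM (clone 11) in untreated WT cells. GLI2, the signal transducer SMO and the kinesin KIF7 were lower on side A without overlap, opposite to ZIC2. GLIS1 and GLIS2, GLI-like zinc finger factors, were higher on side A. GLIS1 had few counts, 6 to 13 on side A and 1 to 5 on side B. In the list, 2 of 19 genes were higher and 4 lower on side A without overlap, beside 16.5% and 12.9% of all tested genes. The list's median log2FC was -0.03 to 0.10 over the 4 comparisons, beside 0.00 to 0.01 for all tested genes.

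The list of early neural, neural plate border and neural crest factors held 25 genes, of which 16 were tested. PAX6, a transcription factor of the eye and forebrain, was a DEG with a lower level in both single knockouts. Its WT libraries had 198 (clone 2) and 295 (clone 11) counts, the MUTYH knockout had 63 (clone 7) and 91 (clone 8), and the OGG1 knockout had 80 (clone 1) and 88 (clone 22). The WT clones did not overlap those of either single knockout. Its log2FC was -1.66 ± 0.37 (SE) in the MUTYH knockout and -1.54 ± 0.37 in the OGG1 knockout. With edgeR's quasi-likelihood test, neither passed adjustment over all genes (adjusted p = 0.9997 and 0.999). In DKO cells, PAX6 had 105 counts in clone 4 and 195 in clone 14, and it was no DEG there. The remaining 15 tested genes of the list were no DEGs in any comparison, and after H2O2 0 of 16 were. The list's median log2FC was -0.19 after H2O2 and -0.01 to 0.02 in the knockouts. SOX2, a neural and pluripotency factor, was at 874 to 1491 CPM and OTX2, a forebrain factor, at 213 to 261 CPM in untreated cells. MSX2, SOX1, OTX1, SIX3 and IRX3 were higher on side A without overlap, as ZIC2 was, and 0 of 16 were lower. Of all tested genes, 16.5% were higher and 12.9% lower in this way. For SOX1 the closest libraries held 12 counts (OGG1 knockout clone 22, side A) and 11 (DKO clone 4, side B).

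The Wnt and TCF list (14 of 18 genes tested between genotypes, 12 after H2O2) and the list of Polycomb PRC2 subunits and DNA methylation enzymes (17 of 17 and 16) each held 0 DEGs in all 4 comparisons by edgeR's quasi-likelihood test, beside 1.19% to 1.77% of all tested genes. Their median log2FC was -0.04 to 0.03 and -0.07 to 0.09. Between the sides, the Wnt inhibitor ZNRF3 was lower on side A without overlap. RBBP4, RBBP7, MTF2 and TET1 were higher, and PHF1, DNMT1 and DNMT3A were lower. Of all tested genes, 16.5% were higher and 12.9% lower on side A without overlap.

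Of the 12 pluripotency factors, 8 were tested. KLF4 was a DEG with a lower level in all 3 knockouts, with a log2FC of -2.90 in the MUTYH knockout, -3.36 in the OGG1 knockout and -3.03 in DKO cells. This rested on WT clone 2, which had 1514 counts, while WT clone 11 had 107 and the 6 knockout libraries had 71 to 117. Without WT clone 2 the values were 0.01, -0.45 and -0.12. SALL4 was a DEG with a higher level in the OGG1 knockout (log2FC 1.52) and in DKO cells (1.27), where it had 26 and 43 and 24 and 34 counts against 17 and 7 in WT. It was no DEG in either comparison without WT clone 2 (log2FC 1.02 and 0.76), nor in the OGG1 knockout without clone 22 or in DKO cells without either DKO clone. Without OGG1 knockout clone 22 its log2FC was 1.14, and in DKO cells it was 1.47 without clone 4 and 1.00 without clone 14. SALL4 was also no DEG in DKO cells by DESeq2 or in a fit of the 4 WT and DKO libraries only (log2FC 1.27 in both). KLF4 also had a P above 0.05 with a fold of similar size without OGG1 knockout clone 22 (log2FC -3.23), without MUTYH knockout clone 7 (-3.10) or 8 (-2.72) and without DKO clone 4 (-2.99) or 14 (-3.10). By edgeR with all 8 untreated libraries and no block, the adjusted p of each KLF4 and SALL4 call was at least 0.999. With the side as a block in edgeR it was lower, down to 0.618 for KLF4 in DKO cells. After H2O2, 0 of 8 were DEGs. The list's median log2FC was -0.10 to 0.22.

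Markers of other cell types were read from 3 lists. CD34, a marker of blood progenitors, was a DEG with a higher level in the OGG1 knockout and in DKO cells, at 9 to 23 counts against 3 and 4 in WT. The fetal globin gene HBG1 was at 0 in all libraries. KRT8, an epithelial keratin, was a DEG with a higher level in the OGG1 knockout (log2FC 1.67) and in DKO cells (1.74). ACTA2, a smooth muscle actin, was a DEG with a higher level in DKO cells (1.20) and after H2O2 (1.90). Without WT clone 2, the log2FC was 1.23 and 1.30 for KRT8, 1.97 for CD34 in the OGG1 knockout and 0.82 for ACTA2 in DKO cells, and these were no DEGs. Without OGG1 knockout clone 22, KRT8 (1.53) and CD34 (1.37) were no DEGs there. ACTA2 was no DEG in DKO cells by DESeq2 (1.20) or without DKO clone 4 (1.38) or 14 (0.97), nor after H2O2 without treated clone 2 (1.47). By edgeR with filterByExpr, no block and no library left out, the adjusted p of these marker calls was at least 0.999 in the knockouts. For ACTA2 after H2O2 it was 0.638 in that edgeR fit. With clone number as a replicate block, the ACTA2 log2FC after H2O2 was 1.88 and its adjusted p by edgeR's quasi-likelihood test was 0.028. That fit left 1 residual degree of freedom. The 3 tested neural markers held 0 DEGs. Median log2FC was 0.38 to 0.48 for the adherent markers, -0.47 to 0.34 for the neural markers and 0.02 to 1.24 for the 2 tested blood markers between genotypes. Their part in the ZIC values was not tested. OGG1 itself had 295 and 275 counts in WT, 27 (clone 1) and 254 (clone 22) in the OGG1 knockout, and 215 and 223 in DKO cells. MUTYH had 89 and 105 counts in WT, 101 and 83 in the MUTYH knockout and 106 and 50 in DKO cells. A small insertion or deletion need not lower the transcript, so these counts do not check the labels.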

How the data were processed

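RNA-seq of 10 HAP1 libraries was analysed from 2 tables of read counts per gene deposited by the authors, who aligned reads to GRCh38 with HISAT2 2.2.1 and counted them with Rsubread on an Ensembl annotation. Strand setting and treatment of reads with several alignments are not given in the sources used here. The counts were not normalized, and the 2 WT columns present in both tables were identical and used once.

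Differential expression was computed with edgeR 4.0.16 in R 4.3.3 (TMM factors of 0.96 to 1.02, filterByExpr by group, quasi-likelihood F test, two-sided, legacy=TRUE, Benjamini-Hochberg adjustment). The 8 untreated libraries gave 17881 tested genes on 4 residual degrees of freedom, and the 4 WT libraries with and without H2O2 gave 16997 on 2. P values measure the spread between clones, of which there were 2 per group. Log2 CPM used a prior count of 2. Scripts were tested on simulated data.

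WT clone numbers pair treated with untreated libraries, since the same clones were treated. The clone difference correlated between both conditions (Pearson r = 0.681 over 16997 genes).

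Named genes were the ZIC genes, DEGs of fixed lists (at most 4 per list and comparison), genes within 1 Mb, the 5 genes most correlated with each tested ZIC gene, OGG1 and MUTYH. The list genes named for a difference between the sides, with GLI2, SOX2 and OTX2, and LITAF for its gap, were chosen after their values were seen. The members, lists and tests were chosen with earlier results of these data known. Some results that these rules cover are not reported here. Positions came from GENCODE v44 by symbol, and promoter sequences from RefSeq (GRCh38.p14), where the 4 genes matched 9 starts. Alternatives were DESeq2 1.42.0, its size factors, other filters, other sets of libraries, blocks, and leaving out each library.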

Additional observations from a re-analysis of the deposited data

How the results depend on the processing

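The ZIC counts and fold changes were recomputed under each alternative. In all 39 alternative counts, 0 ZIC genes were DEGs. Of 78 alternative ZIC log2FC values, 4 moved by more than the SD between clones, all from leaving out 1 library, and 2 of these passed beyond 1 (ZIC2 in the single knockouts). The number of DEGs over all genes depended on the filter. Without a filter it was 532 in the MUTYH knockout, 692 in the OGG1 knockout, 705 in DKO cells and 510 after H2O2. With at least 10 counts in every library it was 86, 123, 134 and 195. Fewer or more genes were tested by construction. With the library side as a block, it was 318, 435 and 436 in the knockouts. In the paired fit with clone number as a replicate block, it was 473 after H2O2 instead of 298, and the block changed no call of a ZIC gene. The DESeq2 Wald test gave 154 after H2O2, of which 64.9% were higher against 42.3% with edgeR; the cause was not tested. With 1 library left out, the number of DEGs was 117 to 702 in the MUTYH knockout, 165 to 806 in the OGG1 knockout, 260 to 673 in DKO cells and 217 to 497 after H2O2, with the lowest number in each knockout without WT clone 2 and the highest without WT clone 11. The KLF4 log2FC in the MUTYH knockout was -3.80 when WT clone 11 was left out and 0.012 when WT clone 2 was, which turns its sign. PAX6 was a DEG in both single knockouts under all 10 alternatives each, an alternative set chosen after its call was seen. A lone clone in such a fit is assumed to vary like the other groups. At 77 counts, the lowest ZIC2 count, counting error gives a CV of 11.4%.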
